A study of Mus musculus with 4 samples.

Results

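The 10 endothelial genes of the mouse lung described here were chosen by name as genes of the 2 lung capillary cell types and of arteries and veins: Car4, Ednrb, Kdr, Apln, Aplnr, Gpihbp1, Plvap, Cldn5, Gja5 and Vwf. All 10 of 10 are among the 21931 genes of the deposited table, and all 10 passed the filter on low counts in every comparison. RNA sequencing was done on whole lung of C57BL6 mice aged 2 months, with no treatment. The 4 libraries comprise 2 labelled Dnah9 knockout (called knockout 1 and knockout 2), 1 whose genotype label reads Hez and is not spelled out, and 1 labelled wild type. Dnah9 encodes a dynein heavy chain of motile cilia, and the series asks which genes differ in lungs of Dnah9 knockout mice. Which part of Dnah9 was altered, and whether each library holds 1 mouse or a pool, are not stated in the sources used here. P-values therefore cover at most how far these samples vary, which may be technical variation. The Hez and wild-type libraries have no replicate. In comparisons with either alone, only the 2 knockout libraries give a spread within a group.

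In mice, the alveolar capillary bed is built of 2 intermingled endothelial cell types. Aerocytes are large, thin cells that face the air spaces, are marked by Car4 and Ednrb and carry much Kdr and Apln. General capillary cells express the apelin receptor Aplnr, Gpihbp1 and Plvap, and act as progenitors in capillary repair. Arteries express the connexin Gja5, larger vessels, veins above all, express Vwf, and Cldn5 seals tight junctions throughout the endothelium. In whole-tissue RNA, fewer cells of a type and less RNA per cell cannot be told apart, and this applies to every level below.

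The libraries were of like depth, between 15860478 and 16553480 counted reads, with 16445 to 16571 genes holding at least 1 read. Dnah9, the check of the labels, had 240 and 254 reads in the knockout libraries, 420 in Hez and 917 in wild type (14.8, 16.0, 25.4 and 56.6 CPM, read counts scaled to the library's total). Its fold between knockout and wild type was -1.88 on the log2 scale (edgeR quasi-likelihood test, adjusted p = 0.00864). Against Hez it was -0.73 and did not pass an adjusted p of 0.05 in edgeR. All 10 genes listed for multiciliated cells, Dnah9 among them, had folds below 0 against wild type (median -0.52). The part of these cells in the Dnah9 level was not tested. All of 16 other genes found in all endothelium were detected. This does not test which cells the reads of the members come from, and their endothelial label rests on their choice by name. Pecam1, an adhesion molecule of endothelial junctions, had 157 and 156 FPKM in the knockouts, 161 in Hez and 147 in wild type, where FPKM is the deposited read count per kilobase of gene length, scaled to the library's total.

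Ordered by mean FPKM over the 4 libraries, Cldn5 was the most abundant member (236 FPKM), followed by Plvap (197), Car4 (90.6), Kdr (72.4), Gpihbp1 (51.4) and Ednrb (36.7). Aplnr (28.6), Vwf (28.1) and Apln (27.03) came next, and Gja5 was lowest (10.7). Between neighbours in this order the ranges over the 4 libraries overlapped for Aplnr and Vwf and for Vwf and Apln, and did not overlap for the other neighbours. The gap was narrow between Cldn5, whose lowest library had 209.9 FPKM, and Plvap, whose highest had 206. The order rests on the gene lengths listed in the table. With the longest protein-coding transcript as the length, an alternative added after the data were seen, Vwf has a length of 8834 bases in place of 16064. Its mean level then becomes 51.1 FPKM and its place 6 in place of 8. The mean levels of Car4 (142 FPKM), Kdr (110.3), Gpihbp1 (79.4) and Gja5 (16.7) also become over 1.5 times higher with that length, but these 4 keep their places. The levels per length of these 5 genes thus depend on the length chosen, while folds between libraries do not.

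**Figure D1:**
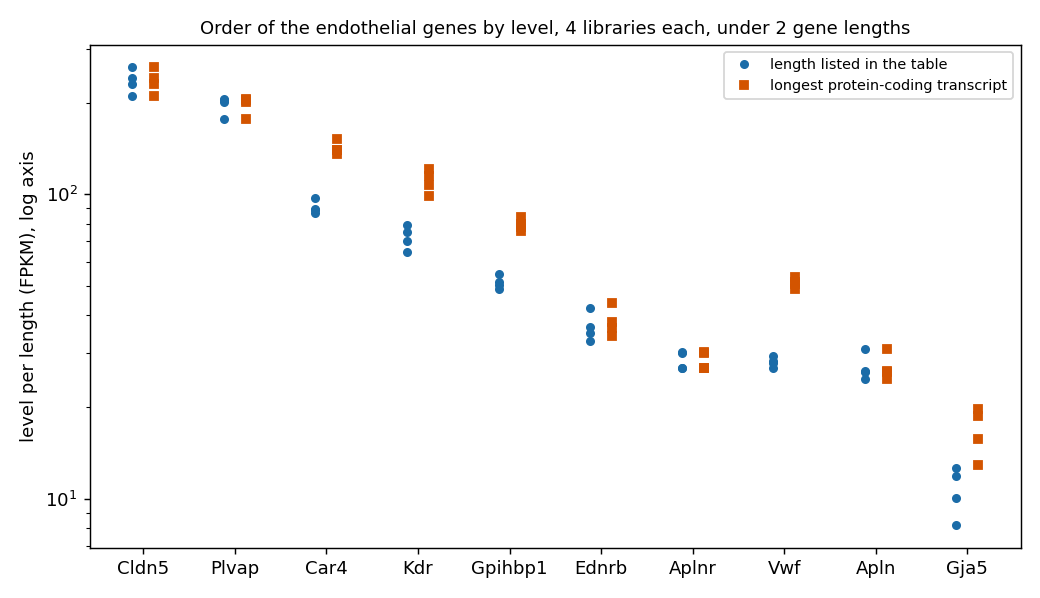
Levels of the 10 endothelial genes, with 1 point per library (n = 4) on a log axis of FPKM, ordered by mean level. Circles use the gene length listed in the deposited table and squares the longest protein-coding transcript; Cldn5 is highest (mean 236 FPKM), Gja5 lowest (mean 10.7 FPKM), and Vwf, Gja5, Car4, Gpihbp1 and Kdr are over 1.5 times higher with the second length.

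Among the aerocyte genes, Car4 and Ednrb were highest in the Hez library, while Kdr and Apln were highest in knockout 2. Car4 (ENSMUSG00000000805, chromosome 11, 84848612 to 84856870 on GRCm39) encodes a membrane-anchored carbonic anhydrase that speeds exchange of carbon dioxide and bicarbonate. It had 89.0 and 89.2 FPKM in the knockouts, 97.1 in Hez and 86.9 in wild type. The knockout pair thus stood above wild type and below Hez, within a narrow span (coefficient of variation 4.97% over 4 libraries). Car4 lies on the same chromosome as Dnah9, 18.8 Mb away.

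Ednrb (ENSMUSG00000022122, chromosome 14, 104052061 to 104081838) encodes the endothelin B receptor, which clears endothelin from the lung circulation. It had 33.1 and 36.5 FPKM in the knockouts, 42.3 in Hez and 35.0 in wild type. The wild-type value lay between the knockouts, and Hez stood above all the others. Counting error alone gives a 95% exact Poisson interval of 40.8 to 43.8 FPKM in Hez and of 33.6 to 36.4 FPKM in wild type. Such intervals cover counting error only, not the spread between mice.

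Kdr (ENSMUSG00000062960, chromosome 5, 76093487 to 76139118) encodes VEGF receptor 2, the main signalling receptor for VEGF-A in endothelium. It had 70.3 and 79.4 FPKM in the knockouts, 75.1 in Hez and 64.8 in wild type. Both knockouts exceeded wild type, and Hez lay between them. Apln (ENSMUSG00000037010, chromosome X, 47114023 to 47123730) encodes the secreted peptide apelin. It had 26.2 and 31.1 FPKM in the knockouts, 26.1 in Hez and 24.7 in wild type. Knockout 1 was level with Hez, and the gap between the knockouts (0.24 on the log2 CPM scale) was the widest of any member.

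The general capillary genes did not share 1 pattern. Aplnr (ENSMUSG00000044338, chromosome 2, 84966569 to 84970267), the receptor that apelin binds, had 30.1 and 30.3 FPKM in the knockouts, 26.9 in Hez and 26.9 in wild type. The knockouts agreed closely and both exceeded the other 2 libraries. Gpihbp1 (ENSMUSG00000022579, chromosome 15, 75468477 to 75471330), which anchors lipoprotein lipase on the capillary wall, had 48.8 and 51.7 FPKM in the knockouts, 54.5 in Hez and 50.5 in wild type. Here wild type lay between the knockouts and Hez was highest, as for Ednrb. Plvap (ENSMUSG00000034845, chromosome 8, 71950409 to 71964396), a component of the diaphragms of caveolae and fenestrae, had 206 and 201 FPKM in the knockouts, 204 in Hez and 177 in wild type. Hez lay between the knockouts and wild type stood apart below them.

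Cldn5 (ENSMUSG00000041378, chromosome 16, 18595597 to 18597012) had 242 and 261 FPKM in the knockouts, 231 in Hez and 209.9 in wild type. Vwf (ENSMUSG00000001930, chromosome 6, 125523737 to 125663642) encodes von Willebrand factor, which tethers platelets at sites of injury. Vwf had 27.9 and 29.3 FPKM in the knockouts, 28.4 in Hez and 26.9 in wild type. Both knockouts exceeded both other libraries for Cldn5, while Vwf varied least of the 10 members (coefficient of variation 3.62% over 4 libraries). Platelets and their precursors also hold Vwf. The 10 platelet genes summed to 126 and 44.3 FPKM in the knockouts, 101 in Hez and 110 in wild type, with Gp1bb at 0 in every library, and their part in the Vwf level was not tested.

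Gja5 (ENSMUSG00000057123, chromosome 3, 96812009 to 96984732) varied most of the 10 members. It encodes connexin 40, a gap junction protein of arterial endothelium, which atrial heart muscle also makes. It had 11.9 and 12.6 FPKM in the knockouts, 10.03 in Hez and 8.21 in wild type, from 1122, 1147, 954 and 760 reads. Both knockouts stood above Hez, and Hez above wild type, so the groups did not overlap. The knockouts averaged 12.3 ± 0.471 FPKM (SD, n = 2). The fold between knockout and wild type was 1.504 (95% interval 1.26 to 1.79), and Gja5 had rank 29 by p among 15055 genes. It did not pass the threshold (edgeR quasi-likelihood test, log2 fold 0.59, SE 0.109, adjusted p = 0.323; both of 2 knockouts higher). The 12 cardiac muscle genes, from tissue that also makes Gja5, summed to 303 and 350 FPKM in the knockouts, 440 in Hez and 492 in wild type, lowest in the knockouts, where Gja5 was highest. Their part in the Gja5 level was not tested.

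**Figure D2:**
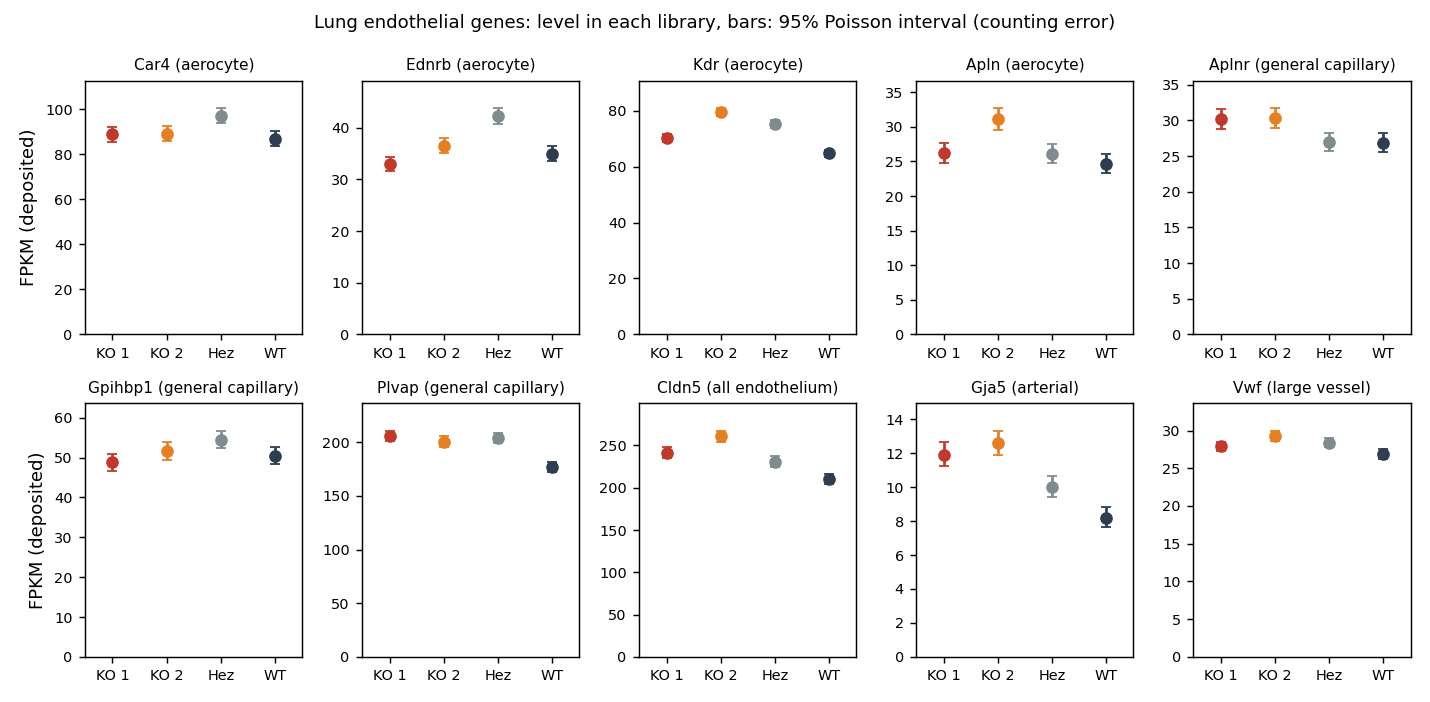
FPKM of each endothelial gene in each library: knockout 1, knockout 2, Hez and wild type from left to right, each axis starting at 0, with bars for the 95% Poisson interval of the count (counting error only). Gja5 runs from 12.6 FPKM in knockout 2 to 8.21 in wild type, Car4, Ednrb and Gpihbp1 peak in Hez, and Vwf is nearly level.

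Promoter windows are shown for Gja5, Cldn5 and Kdr, the members with an unadjusted p below 0.05 against wild type for which the reference table holds one. They run from 250 bases before to 50 bases after the gene start, from RefSeq on GRCm38.p6, a build other than that of the positions above. Gja5 is at chr3:97032152-97032451 (plus strand), Cldn5 at chr16:18776597-18776896 (plus strand) and Kdr at chr5:75978406-75978705 (minus strand). Capitals mark CACCC or its reverse complement GGGTG, the core letters bound by Krüppel-like factors, a family that includes the flow-responsive endothelial factors Klf2 and Klf4.
Gja5: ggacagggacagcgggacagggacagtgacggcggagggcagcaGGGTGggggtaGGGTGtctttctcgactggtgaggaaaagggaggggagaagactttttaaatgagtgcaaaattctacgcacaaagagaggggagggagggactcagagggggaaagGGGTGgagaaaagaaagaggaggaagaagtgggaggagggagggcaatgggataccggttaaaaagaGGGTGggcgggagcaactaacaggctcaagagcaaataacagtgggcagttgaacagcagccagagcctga
Cldn5: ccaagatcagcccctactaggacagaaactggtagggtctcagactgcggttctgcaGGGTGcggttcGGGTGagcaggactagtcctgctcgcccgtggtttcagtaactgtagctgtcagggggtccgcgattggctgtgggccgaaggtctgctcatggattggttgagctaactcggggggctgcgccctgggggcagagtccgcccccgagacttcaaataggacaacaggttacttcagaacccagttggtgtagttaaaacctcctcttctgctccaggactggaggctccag
Kdr: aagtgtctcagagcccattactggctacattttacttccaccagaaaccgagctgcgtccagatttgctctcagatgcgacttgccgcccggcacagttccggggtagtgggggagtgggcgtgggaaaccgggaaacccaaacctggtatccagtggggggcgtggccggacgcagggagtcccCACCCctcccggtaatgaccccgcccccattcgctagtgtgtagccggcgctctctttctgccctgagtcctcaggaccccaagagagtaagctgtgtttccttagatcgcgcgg
The Gja5 window held 4 matches, Cldn5 2 and Kdr 1. Windows for 3 other members were in the table, with 3 matches in Ednrb, 1 in Car4 and none in Apln. Of 32851 mouse promoter windows of this length, 57.5% held at least 1 match, 25.7% at least 2, 9.35% at least 3 and 3.10% at least 4. The Gja5 window had 55.7% GC, against a median of 52.7% over all windows. Other letters searched on both strands were GGAA (the ETS core, in 96.0% of windows, 3 times in Gja5, 5 in Kdr and absent from Cldn5) and TGGGAA (the RBPJ core, in 25.6%, once in Kdr). Also searched were CCGGAA (a longer ETS site, 14.9% of windows), ATTGT (SOX, 31.0%), GATAA (GATA, 25.4%) and TATAAA (the TATA box, 13.6%), of which the 3 windows held 1 match, CCGGAA in Kdr. GGAA matches include those within TGGGAA and CCGGAA. Such matches describe the letters and are not binding sites. Klf2 itself had 80.7 and 158 FPKM in the knockouts, 107 in Hez and 91.5 in wild type, with knockout 2 far above the rest.

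The comparison of knockout with wild type asks whether these endothelial genes differ with loss of Dnah9. None of the 10 passed an adjusted p of 0.05 in edgeR's quasi-likelihood test, fitted to all 15055 tested genes, of which 8 (0.0531%) passed. Fitted log2 folds were above 0 for all 10 members, with a median of 0.20, while 51.1% of all tested genes were above 0 and their median was 0.0045. For Ednrb and Gpihbp1 the fold was below 0 in 8 of 13 alternatives each, and for Car4 in 1 of 13. Both knockouts exceeded wild type in 8 of 10 members (33.0% of all tested genes), Ednrb and Gpihbp1 being the exceptions. All of these values share the single wild-type library, which was the lowest of the 4 for 8 of 10 members (24.2% of all tested genes).

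Of the members, 4, namely Gja5, Cldn5, Plvap and Kdr, had an unadjusted p below 0.05, as had 5.18% of all tested genes. After Gja5, the folds were 1.21 for Cldn5 (95% interval 1.04 to 1.40, adjusted p = 0.812), 1.16 for Plvap (1.01 to 1.33, adjusted p = 0.942) and 1.16 for Kdr (1.003 to 1.35, adjusted p = 0.947), all from edgeR. The interval of the fold was 0.885 to 1.21 for Car4, 0.846 to 1.19 for Ednrb, 0.852 to 1.18 for Gpihbp1 and 0.935 to 1.23 for Vwf. It was 0.968 to 1.33 for Aplnr and widest for Apln, from 0.959 to 1.42. DESeq2's Wald test called 0 members and 0.0801% of all genes, with 1 member and 1.06% of genes at an unadjusted p below 0.05. For limma on log2 FPKM these were 0 members and 0% of genes, and 1 member and 5.57% of genes.

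**Figure D3:**
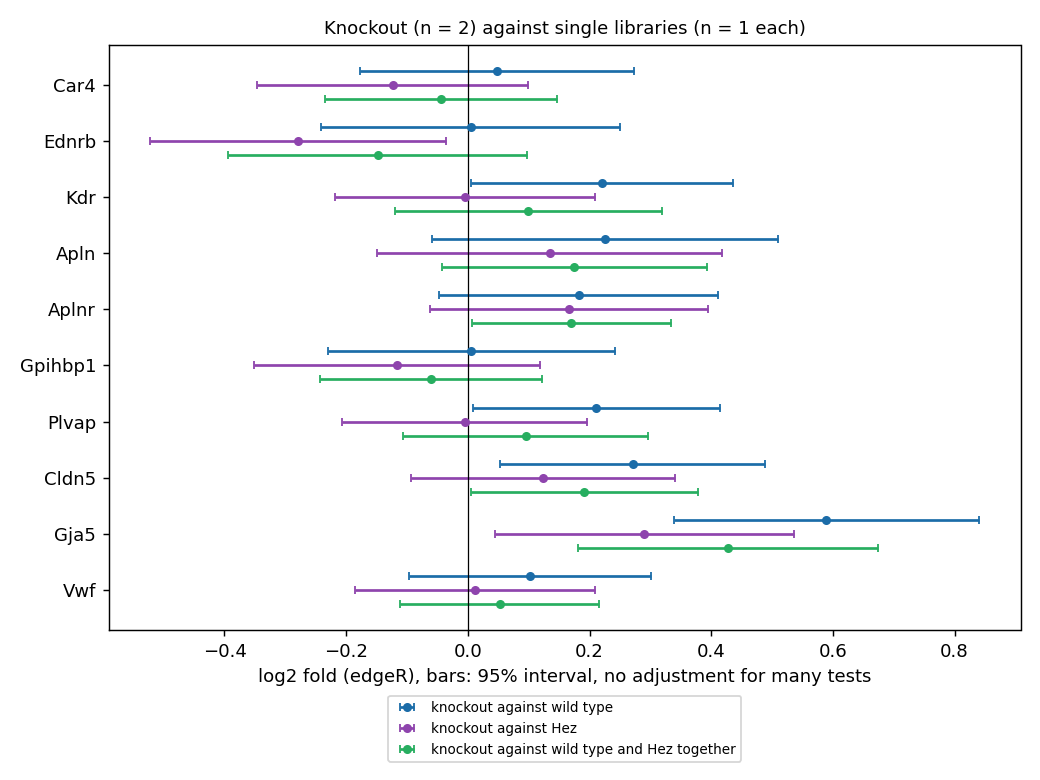
Fitted log2 folds of the 10 endothelial genes for knockout (n = 2) against wild type (n = 1), against Hez (n = 1) and against both together, with 95% intervals not adjusted for many tests. Gja5 has the highest fold in each comparison (0.59, 0.29 and 0.43), and Ednrb is the member furthest below 0 against Hez (-0.28).

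Against Hez, the knockouts showed no common direction. Both knockouts exceeded Hez for Apln (knockout 1 by less than counting error), Aplnr, Cldn5 and Gja5 (4 of 10, 34.2% of all tested genes) and were below it for Car4, Ednrb and Gpihbp1 (3 of 10, 31.9%). None of the 10 passed the threshold in edgeR, where 1 gene of 15055 (0.00664%) did. At an unadjusted p below 0.05 were 2, as were 4.61% of all tested genes: Ednrb (log2 fold -0.28, SE 0.105) and Gja5 (0.29, SE 0.107), each with an adjusted p of 0.9997 in edgeR. DESeq2 called 0 members (0.0343% of all genes) and limma 0 (0%). At an unadjusted p below 0.05, both had 0 members, against 0.939% of genes for DESeq2 and 4.21% for limma.

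Set against wild type and Hez as 1 group, none of the 10 members passed, and 2 of 14674 genes (0.0136%) did. Gja5 had a log2 fold of 0.43 (SE 0.106, edgeR adjusted p = 0.649). Aplnr (0.17) and Cldn5 (0.19) followed, both with an edgeR adjusted p of 0.975. These 3 had an unadjusted p below 0.05, as had 5.05% of all tested genes. Both knockouts stood above both other libraries for Apln, Aplnr, Cldn5 and Gja5, 4 of 10 members, as did 17.5% of all tested genes. For Apln this rests on 26.2 FPKM in knockout 1 against 26.1 in Hez, a gap within counting error. No member had both knockouts below both other libraries (16.3% of all tested genes). DESeq2 called 0 members (0.195% of all genes) and limma 0 (0%). At an unadjusted p below 0.05, DESeq2 had 2 members (2.42% of genes) and limma 1 (5.12%).

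The Hez library stood above wild type for all 10 members, against 49.5% of all tested genes, with 1 library each and no test. The ratio reached 1.22 for Gja5 and 1.21 for Ednrb, the only members at 1.2-fold or more, a level that 10.2% of all tested genes reached upward. It was 1.16 for Kdr, 1.15 for Plvap, 1.118 for Car4 and 1.003 for Aplnr. This comparison shares the wild-type library with that of knockout and wild type. Other endothelial lists, without the members, differed in this. Higher in Hez than in wild type were 15 of 16 genes of all endothelium, 9 of 9 general capillary genes and 6 of 8 aerocyte genes, with medians of 0.14, 0.14 and 0.13 on the log2 CPM scale. Of the arterial genes 8 of 13 were higher, although their summed FPKM in Hez was 0.870 of that in wild type. Of the venous genes 5 of 11 and of the lymphatic genes 4 of 10 were higher, with medians of -0.01 and -0.04.

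Ratios between members within a library do not depend on its scaling. The 4 aerocyte members summed to 0.767 and 0.836 of the 3 general capillary members in the knockouts, 0.842 in Hez and 0.831 in wild type. Knockout 1 was lowest and the other libraries lay close together, so the gap between the knockouts exceeded that between knockout 2 and wild type. Ligand over receptor, Apln to Aplnr, was 0.869 and 1.03 in the knockouts, 0.969 in Hez and 0.920 in wild type, with both Hez and wild type between the knockouts. Gja5 over Vwf was 0.427 and 0.429 in the knockouts, 0.353 in Hez and 0.305 in wild type, and its order was that of Gja5 alone. Gja5 over Gja4, the other main arterial connexin, was 0.301 and 0.273 in the knockouts, 0.236 in Hez and 0.204 in wild type. The 2 arterial connexins thus stood in different proportion in the 4 libraries. Kdr over Flt1, VEGF receptor 1, was 3.56 and 4.52 in the knockouts, 3.74 in Hez and 3.75 in wild type, with knockout 2 apart from the rest.

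**Figure D4:**
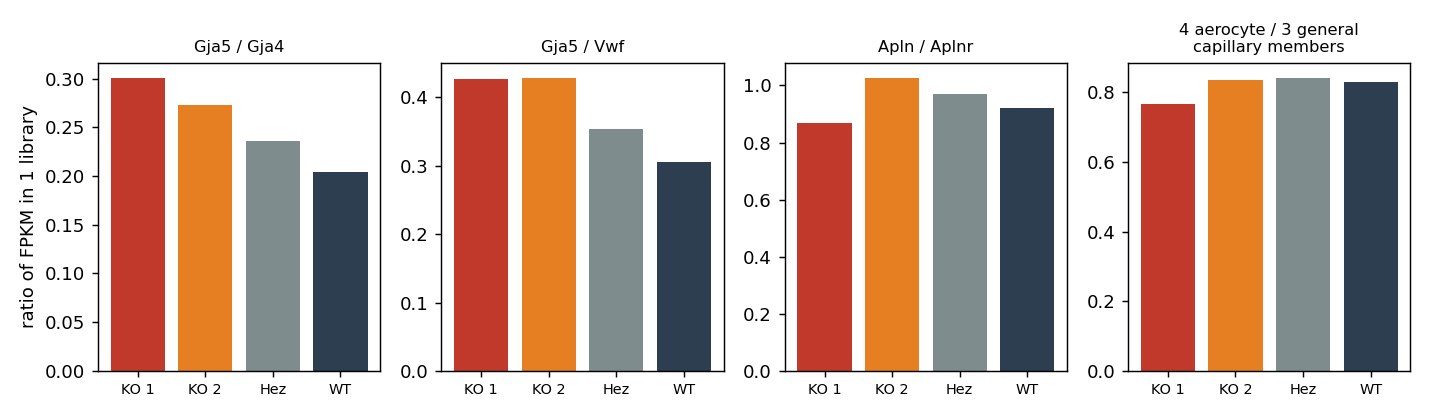
Ratios of FPKM within each library, with bars starting at 0 for knockout 1, knockout 2, Hez and wild type from left to right. Gja5 over Gja4 and Gja5 over Vwf are higher in both knockouts than in Hez and wild type, while Apln over Aplnr and the aerocyte over general capillary ratio differ between the knockouts by more than between Hez and wild type.

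Other genes of the same vessels were read from lists, leaving out the 10 members, and none of those in the 6 endothelial lists passed the threshold between knockout and wild type in edgeR (5 at an unadjusted p below 0.05), DESeq2 (1) or limma (2). Over all genes tested, 5.18%, 1.06% and 5.57% had an unadjusted p below 0.05 in these 3 tools. The 8 other aerocyte genes had a median log2 fold of 0.02, with 5 above 0, and the 9 other general capillary genes one of 0.03, with 8 above 0. Their summed FPKM, knockout mean over wild type, pointed the other way (0.973 and 0.988), as did that of the 13 other arterial genes (0.958). Sums weigh abundant genes most. The aerocyte gene Pmp22 alone had 258 and 282 FPKM in the knockouts and 278 in wild type, of aerocyte sums of 532, 552 and 557. Fibin, an aerocyte gene, had 34.9 and 30.5 FPKM in the knockouts, 47.2 in Hez and 41.4 in wild type, the only one of these 17 with an unadjusted p below 0.05 (adjusted p = 0.819, edgeR). The 13 other arterial genes had a median of 0.03, with 8 above 0 and none at an unadjusted p below 0.05. Gja5 stood at 0.59, and the next highest arterial gene was the netrin receptor Unc5b at 0.26. Its paralog Gja4 had 39.6 and 46.1 FPKM in the knockouts, 42.5 in Hez and 40.2 in wild type.

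Of 12 other venous genes 11 were tested, with a median of 0.07 and 7 above 0. Cpe, carboxypeptidase E, had 20.4 and 20.1 FPKM in the knockouts, 23.8 in Hez and 31.3 in wild type (edgeR adjusted p = 0.229). The adhesion molecule Vcam1 had 9.81 and 10.3 FPKM in the knockouts, 7.27 in Hez and 8.32 in wild type (edgeR adjusted p = 0.819). The 10 lymphatic genes had a median of 0.07 and the 16 genes of all endothelium one of 0.09, with 9 and 14 above 0. With libraries scaled to the genes of all endothelium, the median of all tested genes became -0.09 and the Gja5 fold 0.49, while the folds of Car4, Ednrb and Gpihbp1 lay below 0. Gja5 was then the only member at an unadjusted p below 0.05 in edgeR, as were 1045 of 15055 tested genes. With library totals only, 2 members were (Gja5 and Cldn5), as were 757 of 15055.

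Genes of the pathways in which the members act were also read. Between knockout and wild type none of the endothelin, apelin, VEGF, Notch, lipoprotein lipase, junction or carbonic anhydrase genes passed in edgeR (7 at an unadjusted p below 0.05) or limma (2), and DESeq2 called 1, a carbonic anhydrase. Without the members, 4 endothelin, 9 VEGF, 14 Notch, 7 lipoprotein lipase, 11 junction and 12 carbonic anhydrase genes were tested in edgeR. Of all genes tested there, 5.18% had an unadjusted p below 0.05. Of the endothelin genes, Edn1, the main ligand of Ednrb, had 16.1 and 22.6 FPKM in the knockouts, 15.8 in Hez and 17.6 in wild type. Ednra, the other receptor, had 20.2 and 18.8 FPKM in the knockouts, 20.2 in Hez and 19.1 in wild type, while Edn2 had no read in any library. Apela, the second ligand of Aplnr, also had none. Of the 9 other VEGF ligands and receptors, the co-receptor Nrp2 stood at a log2 fold of 0.29 and the ligand Vegfd at -0.33 (edgeR adjusted p = 0.812 for each). Vegfa, the ligand of Kdr, had 239 and 280 FPKM in the knockouts, 277 in Hez and 270 in wild type. Knockout 1 was low for Vegfa and the other libraries were close together.

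Lpl, the lipase that Gpihbp1 carries, had 20.1 and 18.3 FPKM in the knockouts, 22.0 in Hez and 23.7 in wild type (edgeR log2 fold -0.29, adjusted p = 0.819). Fat cells also make Lpl, and the 9 adipocyte genes summed to 62.9 and 50.4 FPKM in the knockouts, 108 in Hez and 110 in wild type; their part in the Lpl level was not tested. Of 14 Notch genes, a pathway that sets arterial identity, 6 were above 0, and Jag1, a Notch ligand, had 9.75 and 11.4 FPKM in the knockouts, 11.3 in Hez and 13.6 in wild type (edgeR adjusted p = 0.781). Dll4, the arterial Notch ligand, had 16.2 and 21.2 FPKM in the knockouts, 19.5 in Hez and 18.9 in wild type. Of 11 other junction genes 8 were above 0. Of the 15 other carbonic anhydrases 12 were tested and 6 were above 0. Car3, a muscle and fat enzyme, had 17.5 and 13.6 FPKM in the knockouts, 38.9 in Hez and 30.0 in wild type (edgeR adjusted p = 0.208).

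Of 11 other genes of endothelial haemostasis 7 were above 0. Of 15 genes of BMP and ALK1 signalling 11 were above 0. The ligand Bmp6 had 47.7 and 52.0 FPKM in the knockouts, 51.1 in Hez and 44.0 in wild type (edgeR adjusted p = 0.996). Gdf2, which encodes the ALK1 ligand BMP9, was the one gene of the list at an unadjusted p below 0.05, with 4 and 4 reads in the knockouts, 11 in Hez and 21 in wild type (edgeR log2 fold -2.35, SE 0.823, adjusted p = 0.812). Of 10 flow-responsive genes 6 were above 0. Dusp1, a phosphatase that is also an immediate early gene, had 72.8 and 113 FPKM in the knockouts, 79.0 in Hez and 49.0 in wild type (edgeR adjusted p = 0.445). The wild-type library was lowest for Bmp6 and for Dusp1.

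Several gene lists of other cells had medians further from 0 than any endothelial list. The 8 club cell genes had a median log2 fold of -0.74 between knockout and wild type. Of these 3 were lower past the threshold (Scgb3a1, Bpifa1 and Scgb3a2, secreted airway proteins, edgeR adjusted p = 0.00864, 0.021 and 0.0365). Hez was as low: the club cell median was -0.68 for Hez minus wild type, with 0 of 8 higher in Hez. Against Hez, the median fold of the knockouts was -0.04, and none passed in edgeR, DESeq2 or limma. The 10 multiciliated genes had a median of -0.52 between knockout and wild type, with Dnah9 itself lower past the threshold in edgeR. Their median was -0.62 for Hez minus wild type and 0.09 for knockout against Hez. Of 9 adipocyte genes Cfd, complement factor D, was lower in the knockouts than in wild type (edgeR adjusted p = 0.0482). Between knockout and wild type DESeq2 called 4 club cell genes, 1 multiciliated gene and 1 adipocyte gene, and limma called 0 in each list. The 10 smooth muscle genes summed to 489 and 439 FPKM in the knockouts, 369 in Hez and 634 in wild type. None of these passed in edgeR or limma (7 at an unadjusted p below 0.05 in each), and DESeq2 called 1 (5 unadjusted). The 12 cardiac muscle genes had a median of -0.60 between knockout and wild type, all 12 at an unadjusted p below 0.05 in edgeR (5.18% of all tested genes). Against Hez their median was -0.56, with 9 at an unadjusted p below 0.05 in edgeR (4.61%). None passed in edgeR, DESeq2 or limma in either comparison. Against both references together DESeq2 called 4 of them (0.195% of all genes). Of the 13 immediate early genes, which respond within minutes to handling or stimulation, Zfp36 was higher in the knockouts than in wild type (edgeR adjusted p = 0.0365). DESeq2 called 2 of these genes and limma 0. The list summed to 406 and 567 FPKM in the knockouts, 425 in Hez and 277 in wild type, and 12 of 13 were higher in Hez than in wild type. The 10 alveolar type 2 genes had a median of 0.21, close to the 0.20 of the endothelial members, with all 10 above 0. None of them passed in edgeR (6 at an unadjusted p below 0.05), DESeq2 (2) or limma (1). The part of these cells in the endothelial levels was not tested.

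**Figure D5:**
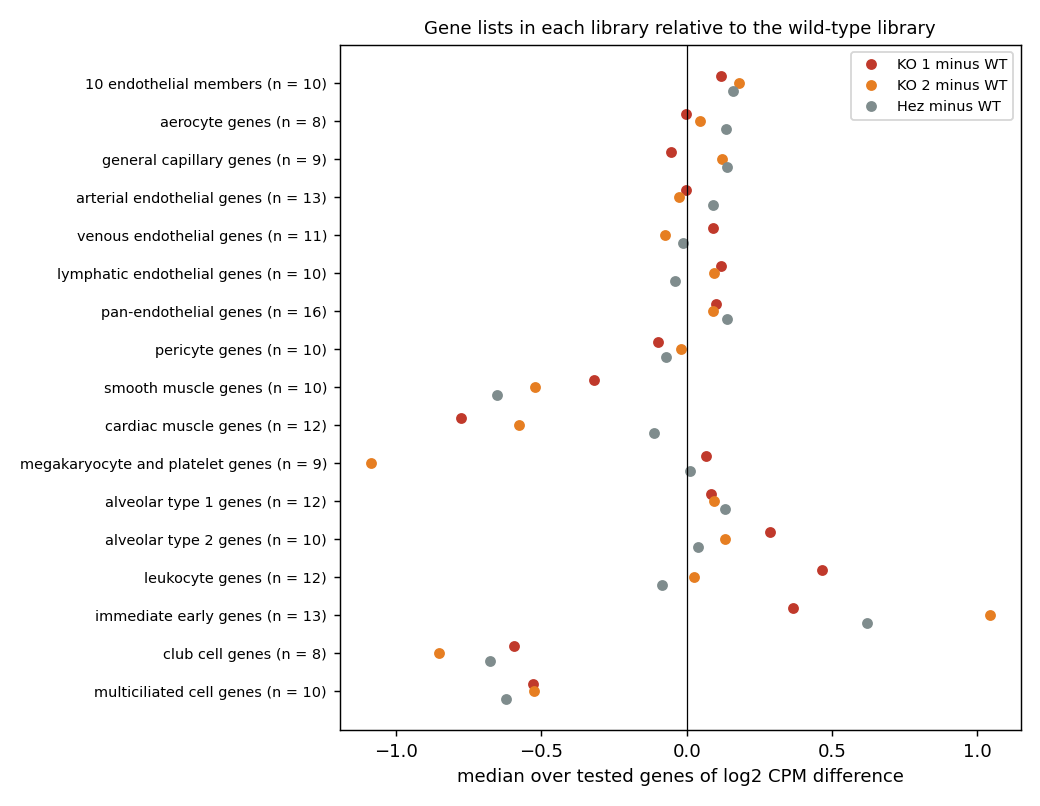
Median log2 CPM difference from the wild-type library over the tested genes of each list, for knockout 1, knockout 2 and Hez, with the 10 members taken out of the lists below the top row. The members lie above 0 in all 3 libraries (0.12, 0.18 and 0.16) and the other endothelial lists between -0.07 and 0.14, while smooth muscle, cardiac, club and multiciliated genes lie below 0 and immediate early genes above it in all 3.

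For the 2 members with the widest range over the 4 libraries, the most alike of 70 other endothelial genes were found by the root mean square difference of centred log2 CPM. For Gja5, whose own log2 CPM ranged over 0.62, these were Mmrn2 (0.141), Mmrn1 (0.147) and Unc5b (0.153). Mmrn2, an endothelial matrix protein, had 13.6 and 15.1 FPKM in the knockouts, 14.2 in Hez and 11.7 in wild type. Unlike for Gja5, Hez lay between the knockouts for Mmrn2. For Ednrb, whose own range was 0.35, these were Sema3c (0.0166), Bmx (0.0488) and Pmp22 (0.0537), and the likeness was closer. Sema3c, a secreted semaphorin, had 93.6 and 106 FPKM in the knockouts, 119 in Hez and 98.5 in wild type, the same order of libraries as Ednrb. With 4 libraries, such likeness describes these samples alone.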

How the data were processed

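RNA from fresh lung was made into libraries with a TruSeq kit and run on an Illumina sequencer, per the labels' protocols. The authors deposited raw read counts per gene and FPKM values for 4 libraries. The deposited FPKM equal count over library total and gene length for all 66024 values above 0 (relative tolerance 1e-06). Per the submitters' processing notes, reads were placed on GRCm39. No source used here names the aligner, counter, annotation or strand setting, so overlapping genes may share reads.

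Groups follow the genotype labels, and replicate numbers follow sample order. All pairs of libraries differed beyond counting noise (chi-square 8.24 to 12.1 per gene). Counts were scaled by TMM, filtered with filterByExpr (minimum count 10) and tested two-sided with edgeR 4.0.16 (quasi-likelihood, R 4.3.3) on 3 groups with 1 residual degree of freedom, or 2 groups with 2, and adjusted by Benjamini-Hochberg over all tested genes (threshold 0.05). Each gene's spread was moderated by 7.02 and 5.72 prior degrees of freedom, so errors draw largely on other genes. No test was made of Hez against wild type. Scripts were tested on simulated data. Alternatives were scaling, filters, DESeq2 1.42.0, limma 3.58.1 on log2 FPKM (pseudocount 0.5, 0.1 or 1) and each library left out. Members and lists were chosen with earlier results of these data known. Besides members, at most 3 genes per list with the smallest p against wild type were named, with ligands, receptors and paralogs of members.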

Additional observations from a re-analysis of the deposited data

How the results depend on the processing

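None of the 10 members passed the threshold in any comparison under any alternative that gave a test. No paired analysis was possible, because the Hez and wild-type groups hold a single library each. Knockout against wild type called 8 genes (2 higher, 6 lower; 1 and 8 when scaled to the genes of all endothelium), and 4 without a filter, 4 at a mean of 10 CPM or more, 14 with DESeq2 and 0 with limma at each pseudocount. Knockout against Hez called 1, and 6 with DESeq2 and 0 with limma. Knockout against both called 2, and 4 when scaled to the genes of all endothelium, 1 at a mean of 10 CPM, 34 with DESeq2, 0 with limma and 1 to 107 with 1 library left out (107 without knockout 1, 24 without knockout 2, 8 without Hez, 1 without wild type). The cause was not tested.

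The log2 fold of Gja5 against wild type kept its direction, from 0.49 to 0.62. Folds near 0 reversed. Against wild type, Ednrb and Gpihbp1 became -0.0075 and -0.0067 with library totals, -0.0091 and -0.0081 at a mean of 10 CPM, and, with limma, -0.0090 and -0.0071 at pseudocount 0.5 (with and without a filter), -0.0092 and -0.0072 at 0.1, and -0.0089 and -0.0070 at 1. Scaled to the genes of all endothelium, Car4, Ednrb and Gpihbp1 became -0.047, -0.091 and -0.090 against wild type, and Kdr and Plvap 0.036 and 0.036 against Hez.

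With 1 library left out, folds against wild type ran from -0.063 to 0.069 for Ednrb and from -0.029 to 0.040 for Gpihbp1, below 0 without knockout 2. Against Hez they ran from -0.088 to 0.075 for Kdr, from -0.031 to 0.020 for Plvap and from -0.017 to 0.041 for Vwf. Against both, they ran from -0.13 to 0.048 for Car4, from -0.28 to 0.0042 for Ednrb and from -0.12 to 0.0051 for Gpihbp1, above 0 without Hez. They ran from -0.0085 to 0.22 for Kdr and from -0.0092 to 0.21 for Plvap, below 0 without wild type. Leaving out a knockout library against 1 single library leaves no residual degree of freedom, so those values have no test. The single wild-type and Hez libraries limit the precision of every fold.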

Other observations

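The 10 pericyte genes, of the mural cells that wrap capillaries, summed to 223 and 229 FPKM in the knockouts, 235 in Hez and 242 in wild type. Of these 3 had a log2 fold above 0 against wild type, none passed in edgeR, DESeq2 or limma, and none had an unadjusted p below 0.05 in any of them. The 12 genes of alveolar type 1 cells, which share a basement membrane with aerocytes, had a median log2 fold of 0.07, with 9 above 0 and 0 past the threshold in edgeR (1 at an unadjusted p below 0.05, Sec14l3), DESeq2 (0) or limma (0). Of 19 connexins other than Gja5, 12 were tested and 4 were above 0. Gja1, connexin 43, had 9.78 and 11.96 FPKM in the knockouts, 8.83 in Hez and 9.53 in wild type (edgeR log2 fold 0.20, adjusted p = 0.996). Knockout 1 stood only narrowly above wild type for Gja1, unlike for Gja5.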
